A study of Caenorhabditis elegans with 6 samples.

Results

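Chromosome IV of Caenorhabditis elegans held 1218 HAM-1::GFP binding regions of the authors' combined list, or 14.4% of it, and the other 5 nuclear chromosomes held the remaining 7212. The members were all regions of that list on chromosome IV, chosen by chromosome and not by strength. The lists of the single ChIP replicates placed 4537, 4608 and 4510 regions on the same chromosome, of 30000, 30000 and 29621 in replicates 1, 2 and 3. Chromatin immunoprecipitation and sequencing was done on whole hermaphrodites at L4, the final larval stage, in 3 ChIP replicates and 3 input libraries. The input libraries were not analysed here. All worms were of strain OP102, which is mutant for unc-119 (ed3) and carries the insertion wgIs102. This transgene holds ham-1 tagged with TY1, EGFP and FLAG, and an unc-119(+) rescue gene. It was introduced biolistically, and per the labels the strain was not outcrossed and shows the fusion protein where ham-1 is normally expressed. The genotype lists no change of the chromosomal ham-1 gene. Chromatin came from worms grown at 20 °C, crosslinked with 2% formaldehyde and precipitated with antibodies against GFP. Regions are therefore those of a fusion protein summed over all cells that express it. Few cells bound strongly and many cells bound weakly cannot be told apart.

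HAM-1, a transcription factor with a winged-helix domain, is known for its part in asymmetric neuroblast divisions in the worm embryo. Each C. elegans autosome has a central part that is rich in widely expressed genes and recombines little, between arms that are richer in repeats and recombine more. Chromosome IV also carries the large clusters of piRNA genes, which make small RNAs that silence transposons in the germline, and the ham-1 gene itself. Reads from the transgene and from the chromosomal ham-1 locus map to the same place. The integration site of the transgene was not analysed here. All coordinates are on WormBase build WS220, as the file headers give it. An annotation of that build was not used here, so no gene is assigned to any region.

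Chromosome IV held fewer regions per Mb than the other nuclear chromosomes pooled, and only V among them was sparser. It had 69.7 regions per Mb in the combined list, against 87.2 per Mb on the other 5 nuclear chromosomes together. In the replicate lists, its density was 259.5, 263.6 and 258.0 per Mb in replicates 1, 2 and 3, and that of the other 5 chromosomes was 307.5, 306.7 and 303.3 per Mb. Each replicate therefore put chromosome IV below the pooled rest. Chromosome V, with 59.7 per Mb in the combined list and 211.5, 214.3 and 217.6 per Mb in the replicates, was below IV in every list. The mean log2 ratio was -0.23 ± 0.013 (SD, n = 3), with an exact two-sided sign-flip permutation p of 0.25, the smallest that 3 lists allow, and an adjusted p of 0.33 over 8 tests. This test cannot pass the 0.05 threshold with 3 lists. The labels do not say that replicates came from separate cultures, so their spread may be technical.

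Along the chromosome, the regions were fewest on the right. Split by midpoint into 3 equal parts of 5.83 Mb, chromosome IV held 433 combined regions on the left, 486 in the centre and 299 on the right. These are 35.6%, 39.9% and 24.5% of its regions, with 95% Wilson intervals of 32.9 to 38.3%, 37.2 to 42.7% and 22.2 to 27.0%. Such intervals reflect counting error alone, and regions that lie side by side are not independent. The left part had 74.3 regions per Mb, the central part 83.4 and the right part 51.3.

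At their full length, the replicate lists showed the sparse right part but no clear peak in the centre. The left part held 1655, 1708 and 1601 regions in replicates 1, 2 and 3. The centre held 1655, 1602 and 1706, and the right part 1227, 1298 and 1203. The left exceeded the centre in replicate 2, equalled it in replicate 1 and fell below it in replicate 3, while the right part was lowest in all 3. Mean densities were 283.9 ± 9.2 per Mb on the left, 283.9 ± 8.9 in the centre and 213.2 ± 8.5 on the right (SD, n = 3 each). The left part was 1.35, 1.32 and 1.33 times as dense as the right in replicates 1, 2 and 3, against 1.45 in the combined list. The mean log2 ratio of left to right was 0.41 ± 0.018 (SD, n = 3; exact permutation p = 0.25, adjusted p = 0.33).

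Among the other chromosomes the balance of left and right varied. In the combined list the left-to-right ratio was 1.37 on V, 1.07 on I, 0.917 on X, 0.888 on III and 0.437 on II. In the replicate lists it averaged 1.15 ± 0.044 on I and 1.12 ± 0.051 on V (SD, n = 3 each), below the 1.33 ± 0.017 of chromosome IV, but the imbalance of II, in the opposite direction, was larger. A lopsided chromosome is therefore not particular to IV.

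**Figure D1:**
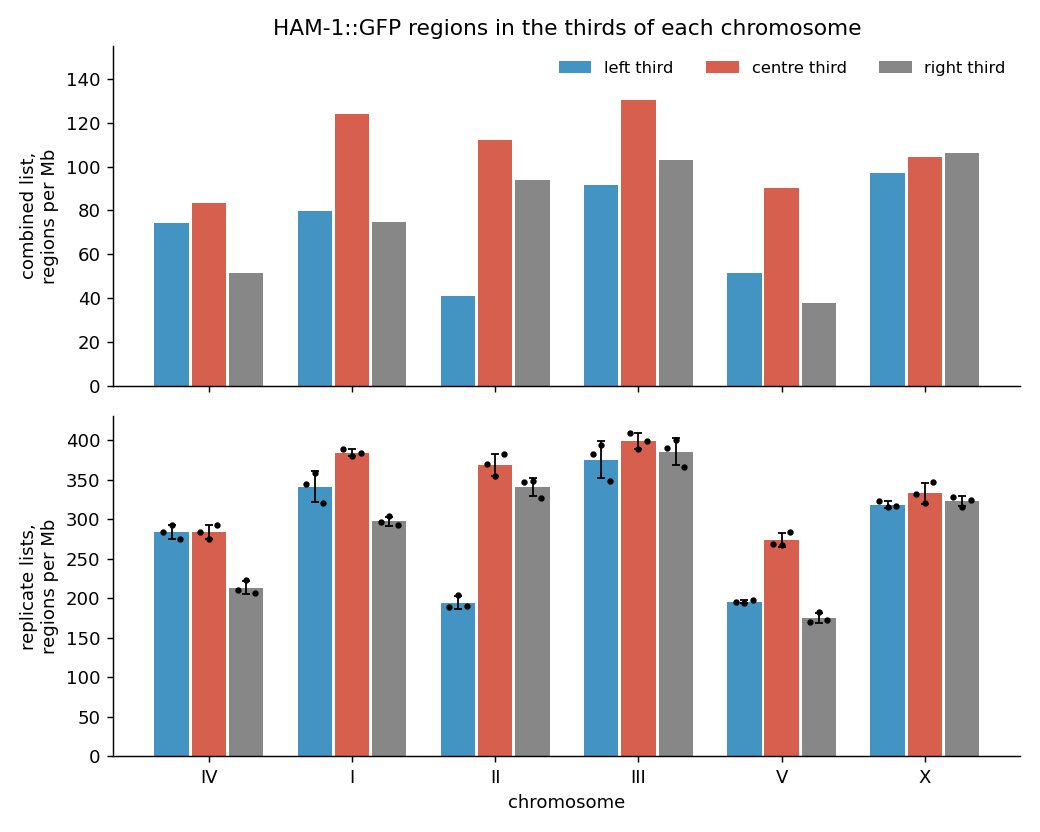
Density of HAM-1::GFP regions, in regions per Mb, in the left, central and right part of each nuclear chromosome. The upper bars are the combined list, and the lower bars are means of the 3 replicate lists with their SD, with 1 point for each replicate. On chromosome IV the right part was lowest in every list, at 51.3 per Mb in the combined list and 213.2 per Mb on average in the replicate lists.

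The centre of chromosome IV stood out less than the centres of the other autosomes pooled, but not less than that of III. Its centre-to-outer ratio was 1.33 in the combined list, against 1.63 for the autosomes I, II, III and V pooled. In replicates 1, 2 and 3 the ratio on IV was 1.15, 1.07 and 1.22, against 1.26, 1.19 and 1.33 on the other autosomes. Chromosome IV was the lower of the pair in each replicate. Chromosome III had a ratio of 1.34 in the combined list, close to that of IV, and 1.06, 0.979 and 1.12 in the replicates, each below IV. The difference of log2 ratios was -0.14 ± 0.016 (SD, n = 3; exact permutation p = 0.25, adjusted p = 0.33). The centre of IV itself was denser than its outer parts by a log2 ratio of 0.19 ± 0.096 (SD, n = 3; exact permutation p = 0.25, adjusted p = 0.33), and the size of this value changed with the length of list used, as given further on.

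A finer division into 20 equal parts, chosen after the data were seen, placed the fall in density toward the right end. In the combined list the highest densities were 103.0 per Mb in part 13 and 100.7 per Mb in part 10. From part 13 to part 19 the density fell with each part, and parts 18, 19 and 20 had 36.6, 32.0 and 35.5 regions per Mb. The replicate lists had their highest mean in part 14, with 339 ± 10 regions per Mb, and their lowest in part 19, with 104.9 ± 0.66 (SD, n = 3 each). Part 14 led in replicates 2 and 3, and part 10 in replicate 1, with 334.0 per Mb. Part 20, at the tip, had 198 ± 13 per Mb in the replicate lists and thus stood above part 19, a difference that the combined list barely showed.

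Taken as a unit, the right end of chromosome IV, 15% of its length, held 91 combined regions, or 34.7 per Mb. The left end held 173, or 66.0 per Mb, and the rest of the chromosome 77.95 per Mb. In replicates 1, 2 and 3 the right end had 162.1, 168.2 and 149.9 regions per Mb. The left end averaged 291 ± 14 per Mb and the rest 275.2 ± 2.0 per Mb (SD, n = 3 each), and the right end was below both in every replicate. Relative to its whole chromosome, the right end of IV had a density ratio of 0.614 ± 0.030 in the replicate lists (SD, n = 3). The right ends of the other 5 chromosomes had mean ratios of 0.949 to 1.11. The left end of II was as sparse, with 0.592 ± 0.027. In the combined list the right-end ratio was 0.498 on IV, 0.726 on V, 0.806 on I and 0.903 to 1.07 on the rest. The left end of II was sparser there, with 0.413. Left ends of III, V, I and X had 0.666 to 0.716 in that list.

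**Figure D2:**
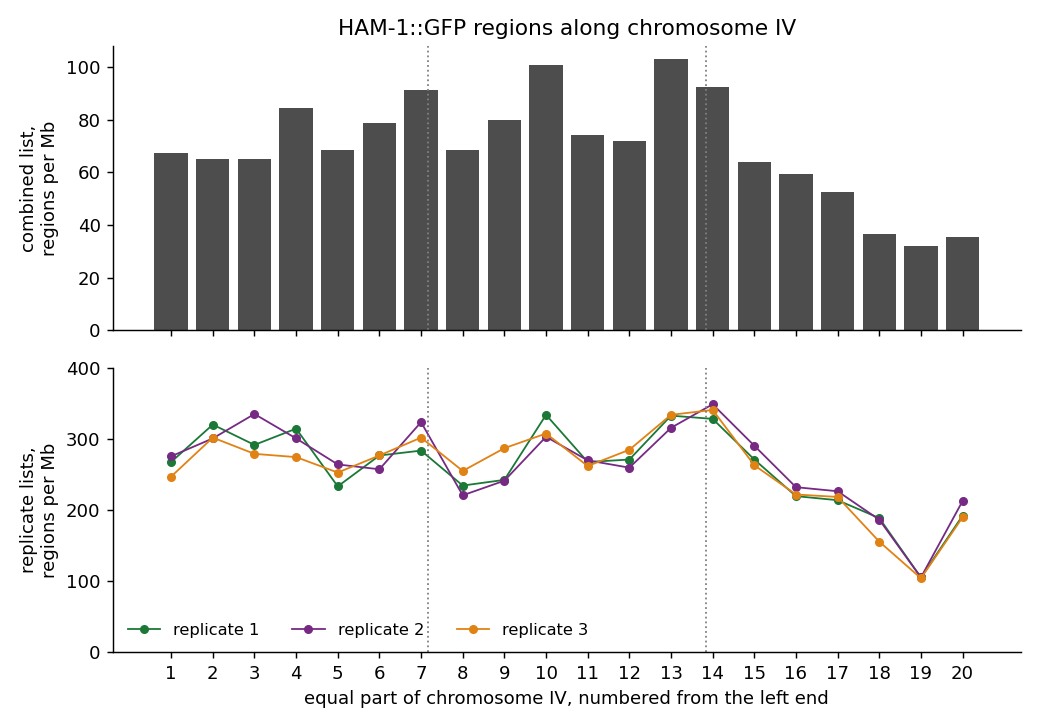
Regions per Mb in 20 equal parts of chromosome IV, numbered from the left end, in the combined list (bars) and in each replicate list (lines). Dotted lines separate the left, central and right part. The replicate lines lie close together at part 19, the lowest, with a mean of 104.9 regions per Mb.

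In the combined list, the few strongest sites lay outside the central part. The number in each region's name was taken as the authors' order, with 1 the strongest, because the deposited score is tied at its highest value, 4.04, for 782 of the 1218 regions. Of the 10 strongest regions of chromosome IV, 7 lay in the left part, 0 in the centre and 3 in the right part. They are given with the place that their site held in the lists of replicates 1, 2 and 3. The combined list is of the same series and its making is not given, so high replicate places are not taken as separate evidence.

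The strongest region of the chromosome was IV:4749844-4750271, 428 bp wide. It was placed 4 in the combined list and 4, 7 and 8 in replicates 1, 2 and 3. The next was IV:654698-655150, placed 10 in the combined list and 10, 11 and 6 in the replicates. IV:13240432-13240867 followed at place 27, with replicate places of 25, 35 and 25. These 3 sites held nearly the same rank in every library.

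The next pair lay together at the right tip, in the sparse end of the chromosome. IV:17278260-17278873, 614 bp wide, was placed 48 and held places 46, 60 and 63 in the replicates. IV:17249669-17250057 was placed 53 and held places 48, 73 and 66. The 2 regions were 28.2 kb apart, at 98.8% and 98.7% of the chromosome's length. The sparsest end of the chromosome thus held 2 of its 5 strongest regions.

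The other 5 of the first 10 all lay in the left part. IV:1094172-1094552, at combined place 54, held places 61, 42 and 180 in replicates 1, 2 and 3. IV:3294559-3294966, at place 68, held 73, 96 and 71. IV:1659070-1659443, at place 79, held 125, 105 and 61. The regions IV:390309-390663 and IV:2388906-2389332, at places 106 and 111, completed the set. Of these, IV:390309-390663 held 70, 113 and 239, and IV:2388906-2389332 held 129, 124 and 80. By the ratio of its worst to its best replicate place, IV:1094172-1094552 varied most among the first 10, with a ratio of 4.29.

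The first region of the central part was IV:11524205-11524608, at place 140 and the 14th strongest of the chromosome. Its places in replicates 1, 2 and 3 were 447, 64 and 134. A close neighbour, IV:11522502-11522964 at combined place 197, held 615, 142 and 122. Both were thus placed lowest in replicate 1. The second strongest central region, IV:10821363-10822320 at combined place 142, held 193, 65 and 582. In replicate 2 the centre thus held 2 of the 9 IV regions within the first 100 places. In replicates 1 and 3 it held 0 of 9 and 0 of 11.

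Among the 50 strongest regions of chromosome IV the imbalance was smaller, with 21 on the left, 17 in the centre and 12 on the right. All 50 were met by all 3 replicate lists. Their median lowest replicate place was 336.5, and the lowest was 2062, in replicate 3, for IV:4049535-4049911, which held places 330 and 177 in replicates 1 and 2. Midpoints differed little: the median offset of the replicate region from the combined one was 9 bp, 12 bp and 15.3 bp in replicates 1, 2 and 3, and 49 of the 50 were within 100 bp in every replicate. The closest pair was IV:15471414-15471775 and IV:15472403-15472726, with 627 bp between them, at places 137 and 401.

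**Figure D3:**
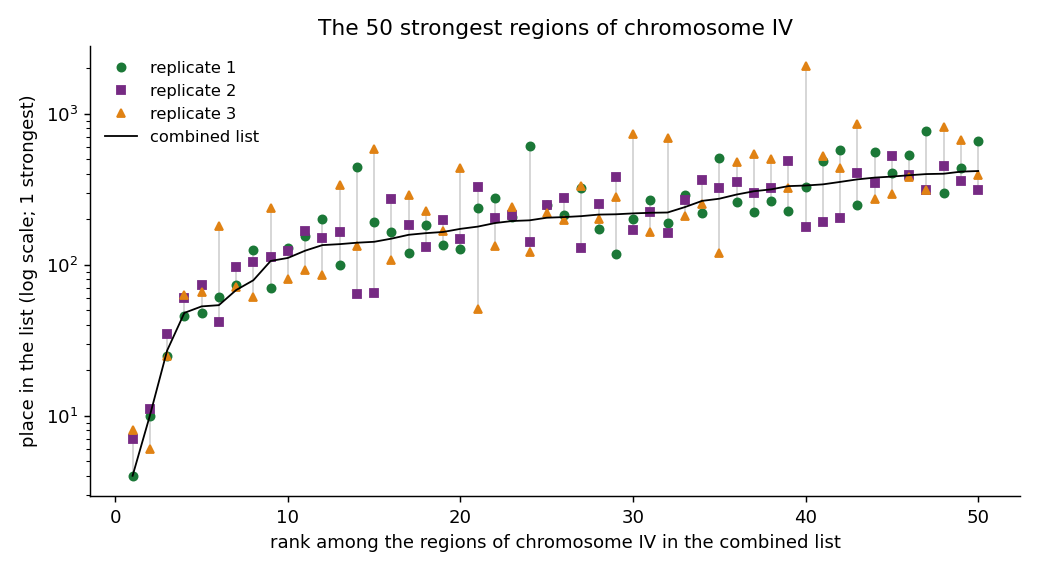
Place in the authors' order, on a log scale with 1 the strongest, of the 50 strongest regions of chromosome IV in the combined list (line) and of the matching region in each replicate list (points, joined by a grey bar). The first 3 regions held places of 35 or better in every replicate, and the widest departure was the region at place 2062 in replicate 3.

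The share of chromosome IV was low at the very top of the lists and close to its overall share lower down. It had 8.0% of the first 100 combined regions (95% Wilson interval 4.11 to 14.998%). At the first 250 it had 13.2%, at the first 1000 14.7%, and in the complete list 14.4%. In the replicate lists its share was 9.81% ± 1.3 at the first 100 places, 11.97% ± 0.92 at the first 250, 14.8% ± 0.39 at the first 1000 and 15.2% ± 0.12 in the whole list (SD, n = 3 each). The share of the first 1000 minus that of the whole list was -0.42, -0.86 and 0.03 percentage points in replicates 1, 2 and 3, with no common sign (exact permutation p = 0.5, adjusted p = 0.57). For the first 250 the difference was -3.27 ± 0.97 percentage points and below 0 in all 3 (SD, n = 3; exact permutation p = 0.25). Read the other way, 147 of the 1218 regions, or 12.1%, were within the first 1000 places, where the background over all chromosomes is 11.9%.

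**Figure D4:**
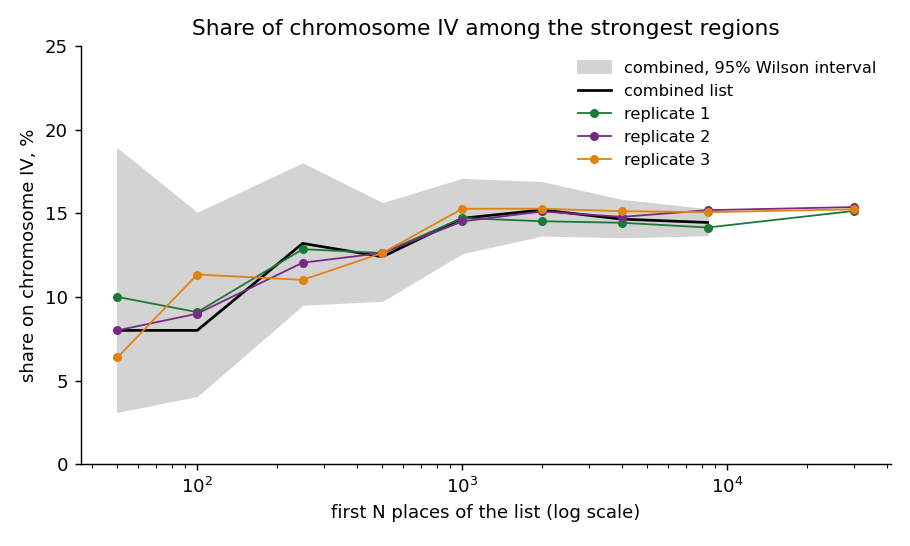
Percent of the first N regions of each list that lay on chromosome IV, with N on a log scale. The black line is the combined list with its 95% Wilson interval in grey, and coloured points are the replicate lists. All lists start at 10% or less for the first 50 places and reach 14.5 to 15.3% at the first 1000.

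In the combined list, strength differed little between the 3 parts of chromosome IV. The first 1000 places took 52 regions of the left part, 55 of the centre and 40 of the right part, or 12.01%, 11.3% and 13.4% of the regions there. Median combined places were 4344, 3962 and 4190. In the longer replicate lists the centre was better placed, with a median place of 13904 ± 335, against 16101 ± 276 on the left and 15599 ± 547 on the right (SD, n = 3 each). The other 5 chromosomes had the same order, with 13455 ± 200 in the centre, 16062 ± 344 on the left and 15494 ± 214 on the right. By contrast, among the first 1000 places the centre of IV was less prominent than that of other autosomes. It held 37.4% of the IV regions (95% Wilson interval 30.01 to 45.5%), against 45.8% on I, II, III and V (41.9 to 49.7%). From there to place 4000 the centre held 43.3% on IV and 43.8% on the other autosomes, nearly equal shares. Beyond place 4000 it held 38.1% and 45.3%. In the replicate lists the centre-to-outer density ratio on IV was 1.21 ± 0.033 for the first 1000 places and 1.39 ± 0.062 from there to as many places as the combined list has (SD, n = 3 each). On the other autosomes the ratios were 1.65 ± 0.074 and 1.66 ± 0.045. Beyond that the ratio was 1.07 ± 0.086 on IV and 1.13 ± 0.075 elsewhere. The left-to-right ratio of these weakest regions was 1.35 ± 0.032 on IV and 0.953 ± 0.0097 on the other autosomes (SD, n = 3 each), so the imbalance of IV held among them too. The pooled value joins chromosomes of opposite imbalance, from 0.570 on II to 1.15 on I over the whole replicate lists.

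Widths on chromosome IV were close to those elsewhere. Its combined regions were 115 to 1567 bp wide, with a median of 460 bp. Exactly 460 bp was listed for 789 of them, or 64.8%, against 63.9% on the other 5 chromosomes. Most widths thus carry no information on single sites. In the replicate lists the commonest width on IV was 460, 476 and 444 bp in replicates 1, 2 and 3, and it was held by 95.2%, 95.7% and 97.3% of the regions. The median was this width on IV and on the other 5 chromosomes in each replicate. The test of medians could thus show no difference (0 bp, exact permutation p = 1). Mean width on IV minus that on the other 5 was -0.68 ± 0.25 bp (SD, n = 3, exact permutation p = 0.25). Wide regions were fewer on IV: 42, or 3.45%, exceeded 460 bp, against 407, or 5.64%, elsewhere. Chromosome V was close to IV, with 46 of 1249. The difference was not tested. This held among the first 250 places, where 11 of 33 IV regions exceeded 460 bp, against 106 of 217 elsewhere.

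Some combined rows were the same position listed again at another place. On chromosome IV, 9 positions were listed a second time, 5 in the centre and 4 on the right, leaving 1209 distinct positions. Repeated rows made up 0.739% of the list on IV, against 1.72% on the other 5 chromosomes. The widest region of IV, IV:14032973-14034539 with 1567 bp, was listed at places 934 and 4119, and IV:10821363-10822320, with 958 bp, at places 142 and 5143. Rows at such positions, first listings included, accounted for 14 of the 42 wide rows on IV and for 212 of the 407 elsewhere. Wide rows were thus less often at repeated positions on IV. The share of wide regions with each position counted once was not compared.

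Neighbouring regions were slightly farther apart on chromosome IV than on the other chromosomes pooled. After merging of overlapping regions, the combined list formed 1138 stretches there, which covered 469 kb, or 2.68% of the chromosome, against 3.35% of the other 5. Only 78 stretches joined more than 1 region, and none more than 3. The median gap was 3952 bp on IV, against 3602 bp elsewhere, and the middle 50% of gaps on IV ran from 1358 to 16355 bp. Median gaps of the other chromosomes were 3421 bp on X to 3816 bp on V, all below that of IV in this list. In the replicate lists the median gap was 1044, 1111 and 1216 bp on IV in replicates 1, 2 and 3, against 1007, 1074 and 1196 bp elsewhere. The order of single chromosomes did not hold there: the median gap of V was 1053, 1109 and 1262 bp, longer than that of IV in replicates 1 and 3, and X had 1239 bp in replicate 3. The log2 ratio was 0.04 ± 0.015 (SD, n = 3; exact permutation p = 0.25, adjusted p = 0.33).

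The wider spacing came with more long gaps. In the combined list, gaps of at least 50 kb made up 88 of the 1137 on IV, or 7.74%, against 4.97% on the other chromosomes. Together they took up 44.7% of IV and 36.2% of the others. Gaps of 1 kb or less were 17.5% on IV and 19.0% elsewhere. Of the 24 gaps of at least 100 kb on IV, 9 lay in the left part, 2 in the centre and 13 in the right. Chromosome V had 44 such gaps, II 13, I 10, X 8 and III 5, so IV stood second in the combined list. This rank did not hold in every replicate list. There IV had 9, 8 and 4 such gaps in replicates 1, 2 and 3, and II had 8, 8 and 6. The share of gaps of at least 50 kb was higher on IV in each replicate. It was 1.097%, 1.069% and 0.951% in replicates 1, 2 and 3, against 0.843%, 0.797% and 0.582% on the other chromosomes.

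**Figure D5:**
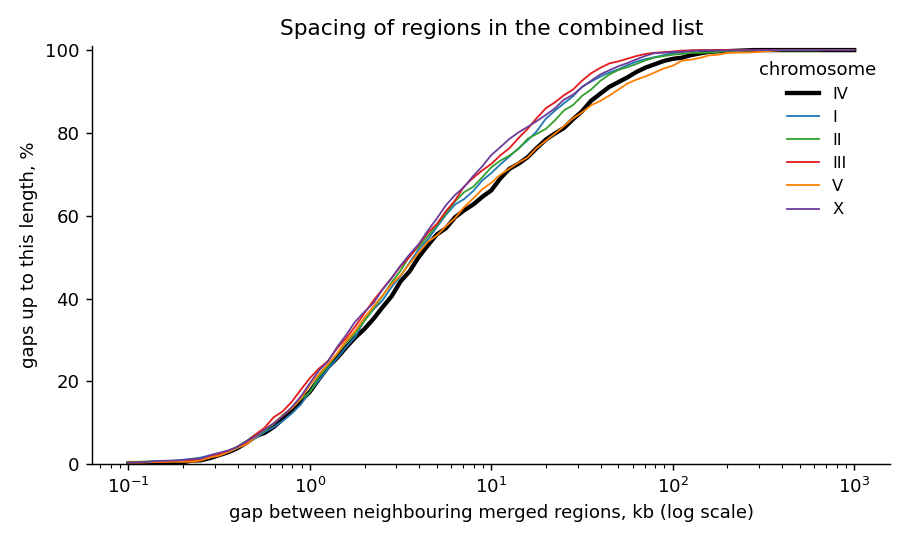
Cumulative percent of gaps between neighbouring merged regions of the combined list up to each length, in kb on a log scale, for chromosome IV (thick line) and the other 5 nuclear chromosomes. Curves are alike for short gaps, and IV lies at the lower edge with V for long ones, with 7.74% of its gaps at 50 kb or more.

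The longest empty stretch of the combined list was IV:4821483-5081135, of 260 kb, on the left. Replicates 1, 2 and 3 listed 8, 8 and 14 regions inside it. The best placed of these, IV:4880664-4881139, held place 1279 in replicate 2 and met a region at place 3815 in replicate 3 and none in replicate 1. The stretch of 230 kb at IV:15039853-15269687 held 8, 13 and 17 replicate regions. There the site IV:15107354-15107464, 111 bp wide, held place 741 in replicate 3, met one at place 2100 in replicate 2, and had no region in replicate 1. Both sites were thus well placed in some libraries and absent from replicate 1.

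The third longest empty stretch, IV:16181095-16382362 with 201 kb, held 1 region in each replicate list, none of them better than place 20085. It lies within the sparse right end. The next were IV:13522208-13695650, of 173 kb with 8, 8 and 13 replicate regions, and IV:12845968-13010475, of 165 kb with 18, 21 and 27.

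In windows of 50 kb, chromosome IV had both empty and crowded stretches. Of the 350 windows of IV, 67 held no combined region, or 19.1% (95% Wilson interval 15.4 to 23.6%), where the background over all chromosomes is 17.2%. Empty windows made up 32.7% of V and 4.71% of III, so IV was near the background. They numbered 24 in the left part, 11 in the centre and 32 in the right. Windows empty in the combined list were not all empty in the replicate lists. The 67 windows held 138, 183 and 213 regions in replicates 1, 2 and 3, or 2.06, 2.73 and 3.18 per window. The other windows of IV held 15.5, 15.6 and 15.2. How many of the regions in the 67 windows were shared between replicates was not tested. In 11 windows no list had any region. Of these, 6 lay in the left part, 5 in the right and 0 in the centre, and they included neighbouring pairs at IV:3900001-4000000, IV:4900001-5000000, IV:16050001-16150000 and IV:16250001-16350000. Whether reads can be mapped there was not tested.

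Crowded windows were fewer on IV than on the other chromosomes pooled. Windows with at least 10 combined regions numbered 18, or 5.14%, against 180, or 10.9%, on the other 5 chromosomes. Chromosome V had a similar share, with 26 windows or 6.21%. They comprised 8 in the left part, 8 in the centre and 2 in the right. The most crowded, IV:4450001-4500000, held 15 combined regions in 12 separate stretches, and replicates 1, 2 and 3 listed 35, 27 and 26 there. Its best region was only at place 1356, and its median place was 6162, against 4181.5 over all combined regions of IV. IV:10800001-10850000 held 13 combined regions, with 33, 34 and 32 in the replicates, and its best region stood at place 142. IV:250001-300000, IV:3600001-3650000 and IV:4000001-4050000 held 12 each, as did 2 windows in the centre. The highest count elsewhere in the genome was 24.

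The replicate lists placed dense and empty windows alike. Over the 350 windows of IV, Pearson's r of the region counts was 0.924, 0.912 and 0.898 for the 3 pairs of replicates, and Spearman's rho was 0.935, 0.919 and 0.905. Windows are not independent, and these values describe the lists only.

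Members were recovered in the replicate lists about as often as regions elsewhere. All 3 lists met 1182 of the 1218 members, or 97.0% (95% Wilson interval 95.9 to 97.9%), where the background over all chromosomes is 96.3%. The other 36 were met by 2 lists. Replicate 3 was the missing one for 19 of them, replicate 2 for 9 and replicate 1 for 8. The strongest of the 36 was IV:12584219-12584431, at combined place 1164. It held places 1316 and 486 in replicates 2 and 3 and had no region in replicate 1.

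In the other direction, 58.1% ± 0.37 of the IV regions of a replicate list were met by both other lists, against 59.1% ± 0.55 on the other 5 chromosomes (SD, n = 3 each). The difference was -0.96, -1.14 and -0.66 percentage points in replicates 1, 2 and 3 (exact permutation p = 0.25, adjusted p = 0.33). Agreement fell along the authors' order. It was 96.8% ± 2.2 for IV regions at places 1 to 3000, 79.1% ± 2.5 to place 12000, 50.2% ± 1.5 to place 21000 and 33.01% ± 2.3 beyond (SD, n = 3 each). Within IV and over all places it was 56.5% ± 1.2 on the left, 61.5% ± 2.8 in the centre and 56.0% ± 1.2 on the right. The centre was not ahead at better places. Left, centre and right had means of 97.2%, 96.5% and 96.6% at places 1 to 3000. From there to place 12000 they had 81.7%, 77.5% and 78.4%. The centre was highest further down, with 49.9%, 52.3% and 48.3% to place 21000 and 30.9%, 36.8% and 32.1% beyond. Across matched IV regions the places had a Spearman rho of 0.73, 0.70 and 0.72 for the 3 pairs, as a description.

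On chromosome IV, 96 sites ranked among the first 1000 in each of the 3 replicates, and 0 of them lacked a combined region. Over all chromosomes there were 656 such sites counted in replicate 1, of which 2 lacked one. Shared sites without a combined region began lower down, and 3 are named after their values were seen. IV:11284094-11284553 held places 1532, 1156 and 1934 in replicates 1, 2 and 3. IV:11961735-11961943 held 949, 1945 and 1716, and IV:9459232-9459691 held 2086, 1205 and 1513. The first and the last of these lay in the centre and the other at the left edge of the right part.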

How the data were processed

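HAM-1::GFP ChIP-seq regions from 3 ChIP replicates of L4 worms were analysed as deposited. Per the file headers, positions are on WormBase WS220. The source column that the authors deposited names SPP, a peak caller, used with IDR, which keeps regions of reproducible rank. The aligner, the versions and the making of the combined list were not given in the sources used here. The authors' score has no stated unit and was used only to describe ties. The lists hold no read counts, so depth is unknown.

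Places are the numbers in the region names, 1 strongest. Chromosome length is the highest end in any list. Mitochondrial regions were left out. Regions met where they shared at least 1 bp, and the strongest overlapping replicate region gave the place. The 3 replicate lists were compared by exact two-sided sign-flip permutation tests, Benjamini-Hochberg adjusted over 8 tests. Values of the combined list carry no test. Wilson intervals have 95% confidence. The text names the 10 strongest regions, the densest 50 kb windows, the 5 longest empty stretches, and the strongest sites that a list lacks. Members and lists were chosen with earlier results of these data known. The division into 20 parts, the 15% ends, mean width and the counting of repeated positions were added after the data were seen. Alternatives covered list length, each replicate left out, merging, 4 equal parts in place of 3, overlap and window size. Python 3.11.15, numpy 2.4.6, pandas 2.3.3, scipy 1.17.1 and matplotlib 3.10.9 were used, and the code was tested on simulated lists.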

Additional observations from a re-analysis of the deposited data

How the results depend on the processing

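Over 60 alternatives, 52 kept the direction and stayed within the spread or on the same side of the threshold, 7 moved and 1 turned round. No p here can fall below 0.25, so the side of the threshold was fixed in advance. The 52 are therefore no measure of stability, and some lay outside the spread. With 4 equal parts, left against right was 0.62, against 0.41 ± 0.018 in the main setting. In shortened lists the centre contrast was -0.28, against -0.14 ± 0.016. The 52 also include alternatives of the median width, where the commonest width set the difference at 0 bp. The combined list alone gave larger values than the replicate lists: log2 ratios of -0.32 for the density of IV against the other chromosomes, 0.41 for centre against outer parts, 0.53 for left against right and 0.13 for the median gap, and -0.29 for the centre contrast of IV minus that of other autosomes. The causes were not tested. Shortened to as many places as the combined list has, the replicate lists gave 0.45 ± 0.058 for centre against outer parts and -0.28 ± 0.021 for the centre contrast (SD, n = 3 each), nearer to the combined list. The share of IV among the first 1000 places minus its share of the list then became 0.032 percentage points, and the sign turned. With 4 equal parts in place of 3, left against right was 0.62 and the centre contrast -0.08. Leaving out each replicate gave -0.24 to -0.23 for density, 0.15 to 0.24 for centre against outer parts, 0.40 to 0.42 for left against right, -0.14 to -0.13 for the centre contrast, 0.04 to 0.05 for the gap, -0.64 to -0.20 percentage points for the share and -1.44 to -0.55 for agreement. Of the 5 densest windows, 3 were kept with 100 kb windows and 3 after merging. No paired analysis was possible because no lists of the inputs were analysed here, and all comparisons are within a list. The sign-flip test over 3 lists gives no p below 0.25, and without read counts the depth behind each region is unknown.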
